A study of Mus musculus with 24 samples.

Results

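The 37 genes described here encode enzymes, activators, membrane proteins and proton pump subunits of the lysosome, together with the transcription factor Tfeb. They were chosen by name: each listed mouse symbol was matched to the gene identifiers of the deposited count table through a table of gene names, and all 37 were found among its 39017 genes. By role they comprised 12 proteases, 11 glycosidases, lipid hydrolases and their activators, 8 membrane proteins, 5 proton pump subunits and 1 transcription factor. All 37 passed the filter on low counts in every comparison.

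The tissue was subcutaneous fat from the 4th mammary pad of C57BL/6 mice, frozen at collection, and the series asks how such fat differs between lean and obese animals, close to and away from a breast tumor. The 24 libraries of ribosomal-RNA-depleted total RNA formed 6 groups of 4: HFD peritumoral, HFD contralateral, HFD no-tumor, Chow peritumoral, Chow contralateral and Chow no-tumor fat. HFD and Chow are the diets, peritumoral fat lay next to the tumor, contralateral fat came from the other side, and no-tumor fat came from a group labelled as having no tumor. In the titles every peritumoral library is marked L, and every contralateral and no-tumor library R. If these letters are body sides, body side and nearness to the tumor cannot be told apart. The labels used here give no age, no diet composition or duration and no origin of the tumor cells, nor whether the 4 replicates in each group are different animals. If they are not, the p-values cover technical spread alone.

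Lysosomes are acidic compartments in which hydrolases break down proteins, glycans and lipids that arrive by endocytosis, phagocytosis or autophagy. A vacuolar proton pump keeps them acidic, cathepsins and glycosidases do the digestion, small activator proteins present lipids to their enzymes, and heavily glycosylated membrane proteins line the compartment. Tfeb and its relatives bind an E-box-like element with the core CACGTG, known as the CLEAR element, near the start of many lysosomal genes. In obese fat, lysosomes of macrophages are known to digest lipid taken up from adipocytes, and adipocytes hold lysosomes of their own.

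The promoter sequences show which of these genes carry the core of that element, or longer forms of it, near their start. RefSeq promoter windows of build GRCm38.p6, each running from 250 bases before to 50 bases after a transcript start, were at hand for 32 of the 37 genes. The 7-base motif TCACGTG, read on either strand, lay in the windows of 10 of the 32 genes (31.2%), against 4.29% of 27025 genes with such windows. Its 8-base palindrome TCACGTGA, which contains the 7-base motif, lay in 6 of 32 (18.8%) against 1.12%, and the 6-base core CACGTG, contained in both, in 12 of 32 (37.5%) against 8.09%. The palindrome with a G before it and a C after it was found in 0 of 32 windows, against 0.37% of all genes. A match is a description of the letters and not of binding. Ctsl and Ctsf hold CACGTG in their windows but not TCACGTG. For Lgmn and Atp6v0d1, the transcribed bases checked in the window with the motif matched none of the gene's transcripts. The stretches below are given 5′ to 3′ on the strand of the gene, with every CACGTG in capitals, for a lysosomal protease of high level (Ctsd), a pump subunit and a glycosidase that were higher on HFD at all 3 positions (Atp6v0d1, Glb1), the proteases with the lowest adjusted p for diet (Ctsl, Ctsf), a gene highest next to the tumor on HFD (Gla), and a membrane protein that was called in 2 diet comparisons and one that was called in none (Lamp1, Mcoln1).
Ctsd, chr7:142387893-142387952, minus strand: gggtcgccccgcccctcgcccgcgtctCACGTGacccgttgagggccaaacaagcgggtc
Atp6v0d1, chr8:105566035-105566094, minus strand: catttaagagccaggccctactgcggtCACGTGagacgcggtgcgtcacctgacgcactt
Glb1, chr9:114401003-114401062, plus strand: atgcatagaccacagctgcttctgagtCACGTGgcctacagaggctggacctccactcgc
Ctsl, chr13:64370724-64370770, minus strand: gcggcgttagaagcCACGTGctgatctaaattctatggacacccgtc
Ctsf, chr19:4855059-4855118, plus strand: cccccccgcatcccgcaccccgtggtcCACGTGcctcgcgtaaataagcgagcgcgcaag
Gla, chrX:134601167-134601226, minus strand: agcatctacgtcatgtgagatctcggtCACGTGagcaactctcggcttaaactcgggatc
Lamp1, chr8:13159119-13159178, plus strand: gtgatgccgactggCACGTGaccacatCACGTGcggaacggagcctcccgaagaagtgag
Mcoln1, chr8:3500447-3500506, plus strand: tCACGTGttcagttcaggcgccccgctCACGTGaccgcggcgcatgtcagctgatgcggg

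Depth ran from 9130125 to 18204747 counts per library and was lowest in Chow peritumoral fat (9130125 to 14460254 counts). Every HFD peritumoral library was deeper than these (15982962 to 18204747 counts). Depth also separated the diets in contralateral fat (HFD 16668320 to 17287693, Chow 11686381 to 13849031 counts). In no-tumor fat the ranges overlapped (HFD 14979723 to 16533437, Chow 16123753 to 16641785 counts). The part of depth in the diet results and their interactions was not tested. The least counted genes, Gla and Tfeb, still had at least 67 and 70 counts in every library. The labelled tissue matched its defining markers: Adipoq averaged between 1167 and 2626 CPM (counts scaled to library size) and Plin1 between 415 and 802 CPM in the 6 groups. Skeletal muscle markers, summed over 5 genes, ranged from 74.9 to 4718 CPM in Chow contralateral, from 32.5 to 2544 CPM in Chow peritumoral and from 16.1 to 978 CPM in Chow no-tumor fat, against at most 233 CPM in any HFD library. They were uneven within every Chow group, and their part in the results below was not tested. In bulk tissue, fewer cells of a type and less RNA per cell cannot be told apart. Of the 37 genes, 14 overlap another annotated gene, and as no strand setting is stated for the counting, reads of the partner may be included. Cd63 is uncertain for a further reason: its processed copy Cd63-ps had 232 to 748 counts per library, more than the 126 to 485 counts of Cd63, in all 24 libraries.

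Levels between genes are compared per kilobase of exon. Over the 24 libraries, the aspartic protease Ctsd (349.7 CPM per kb), Psap, the precursor of the saposin lipid activators (341), the cysteine protease Ctsb (280.4), the membrane glycoprotein Lamp1 (189) and the cysteine protease Ctsl (154) had the highest mean levels. Gla, alpha-galactosidase, and Tfeb had the lowest, at 3.08 and 2.13 CPM per kb. The mean level was highest in HFD peritumoral fat for 29 of the 37 genes and in HFD contralateral fat for 6 (Npc2, Atp6v0d1, Ctsk, Atp6v1h, Ctsf and Naglu). It was lowest in Chow contralateral fat for 29 genes. The same counts were not made over all genes, so it is not known whether this order is particular to the 37. The ratio of the highest to the lowest group mean was largest for Lgmn (4.75), Cd68 (4.42), Ctss (3.25) and Gla (3.04), and smallest for the lysosomal calcium channel Mcoln1 (1.15) and the membrane glycoprotein Lamp2 (1.24).

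**Figure D1:**
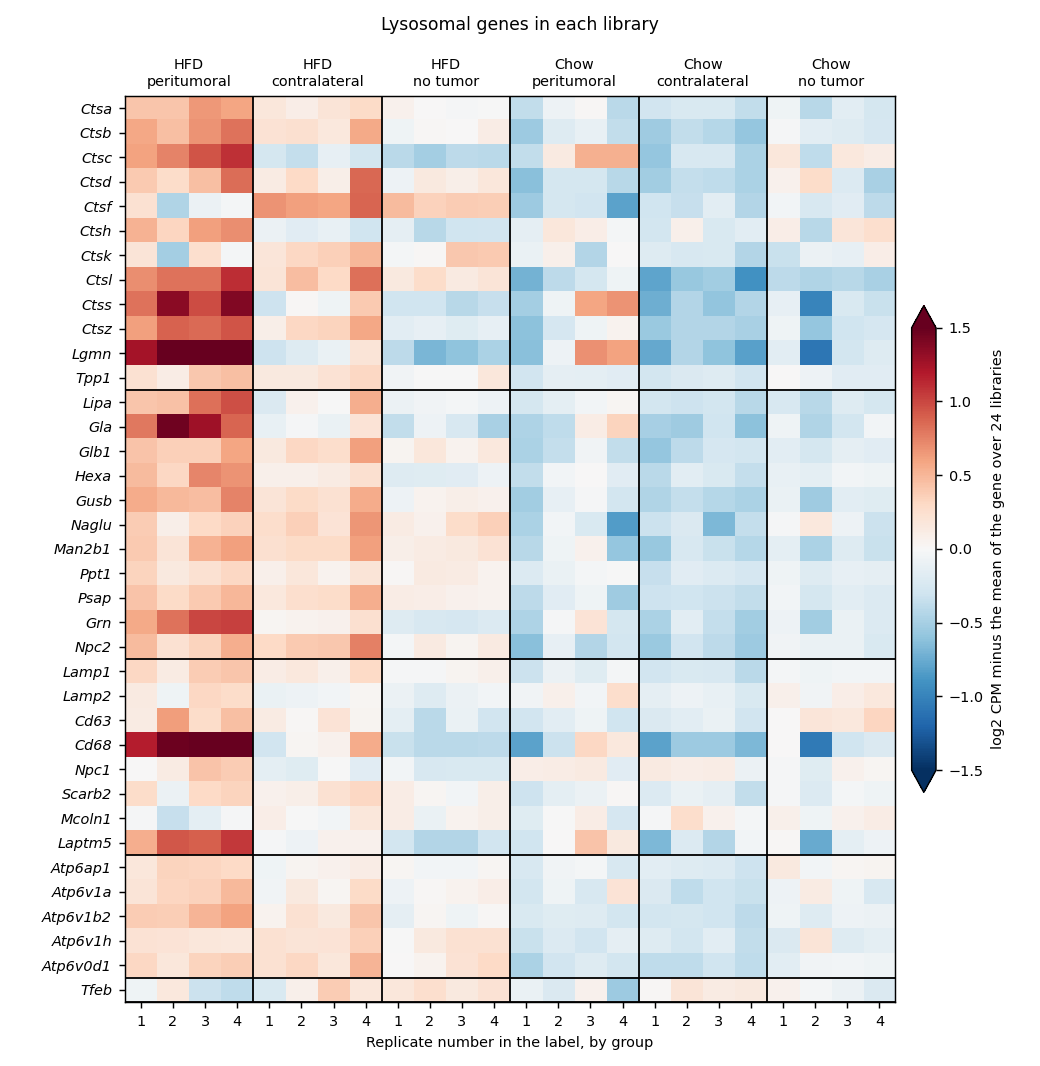
Level of each of the 37 lysosomal genes in each of the 24 libraries, as log2 CPM minus the mean of that gene over all libraries; rows are genes ordered by role, columns are libraries by group, and colours end at 1.5 on either side. HFD peritumoral libraries hold the highest group mean for 29 genes, and Chow contralateral libraries the lowest for 29. These counts were not made over all genes.

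Diet was compared first within fat next to the tumor. HFD peritumoral fat had 29 of the 37 genes higher than Chow peritumoral fat (78.4%, against 16.4% of all 15919 genes tested) and none lower (17.2% of all genes were lower), by edgeR's quasi-likelihood test with Benjamini-Hochberg adjustment over all genes and a threshold of 0.05. At an unadjusted p below 0.05 there were 0 lower members, and DESeq2 also called 0 lower. The median log2 fold change of the 37 genes was 0.62, against 0.02 for all genes. Proteases were higher in 9 of 12 cases, hydrolases and activators in 11 of 11, membrane proteins in 4 of 8 and pump subunits in 5 of 5.

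Ctsl, a broad cysteine protease of lysosomes, had 457, 495, 492 and 604 CPM in HFD peritumoral libraries, against 172, 214, 234 and 269 CPM in Chow peritumoral libraries. Every HFD library lay above every Chow library, and the log2 fold change was 1.16 ± 0.16 (SE, 2.24-fold, edgeR adjusted p = 0.000956). Cd68, a glycoprotein of lysosomes in macrophages, had 135, 165, 189 and 189 CPM in HFD peritumoral against 34.3, 47.6, 73.7 and 66.5 CPM in Chow peritumoral libraries. This was the highest fold change among the 37 genes in this comparison, 1.57 ± 0.23 on the log2 scale (2.97-fold, edgeR adjusted p = 0.00148), with no overlap of the groups. Ctsz, a carboxypeptidase also called cathepsin X, had 181, 219.9, 213 and 229 CPM in HFD peritumoral against 77.5, 99.7, 113 and 123 CPM in Chow peritumoral libraries, again without overlap. Its log2 fold change was 0.99 ± 0.15 (edgeR adjusted p = 0.00153).

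Atp6v1b2, a subunit of the cytosolic half-complex of the proton pump that binds ATP, had 88.7, 87.8, 97.2 and 104 CPM in HFD peritumoral against 58.3, 60.0, 59.5 and 56.3 CPM in Chow peritumoral libraries. The groups stood apart with little spread inside each, and the log2 fold change was 0.65 ± 0.09 (edgeR adjusted p = 0.00105). Lgmn, the asparagine-specific protease legumain, and Gla were higher by 1.32 ± 0.27 and 1.16 ± 0.22 on the log2 scale (edgeR adjusted p = 0.00701 and 0.00399). Grn, the precursor of the granulins, was higher by 0.94 ± 0.16, and the acid lipase Lipa by 0.74 ± 0.14 (edgeR adjusted p = 0.00271 and 0.00425). The 8 genes that did not pass were Ctsc, Ctsf, Ctsk, Lamp2, Npc1, Scarb2, Mcoln1 and Tfeb, with log2 fold changes between -0.09 (Mcoln1) and 0.56 (Ctsc). The groups overlapped for 1 of the 29 called genes, Atp6v1a, the other ATP-binding pump subunit. Absence of overlap largely goes with being called: it held for 81.6% of all called genes in peritumoral fat, 87.1% in contralateral and 88.2% in no-tumor fat.

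In contralateral fat, HFD libraries had 30 of the 37 genes higher than Chow libraries (81.1%, against 24.5% of all 15913 genes) and 1 lower (2.7%, against 24.8%). The median log2 fold change was 0.44, against -0.01 for all genes. All 11 hydrolases and activators and all 5 pump subunits were higher, as were 10 of 12 proteases and 4 of 8 membrane proteins. Ctsf, a cysteine protease with a long propeptide, had 49.5, 47.4, 46.8 and 56.8 CPM in HFD contralateral libraries, against 25.2, 24.3, 27.7 and 22.8 CPM in Chow contralateral libraries. The groups were far apart, with a log2 fold change of 0.96 ± 0.08 (1.95-fold, edgeR adjusted p = 4.41e-06), the lowest adjusted p of any of the 37 genes in this comparison. Ctsz had 126, 147, 149 and 177 CPM in HFD contralateral against 80.7, 87.3, 87.5 and 84.6 CPM in Chow contralateral libraries (log2 fold change 0.78 ± 0.09, edgeR adjusted p = 3.67e-05).

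Atp6v0d1, a subunit of the membrane half-complex of the pump, had 71.0, 75.3, 68.0 and 86.4 CPM in HFD contralateral libraries, against 46.6, 46.7, 49.2 and 46.7 CPM in Chow contralateral libraries. Gusb, beta-glucuronidase, had 46.8, 49.9, 47.8 and 60.4 CPM in HFD contralateral against 29.9, 32.0, 30.5 and 29.5 CPM in Chow contralateral libraries. Neither gene had any overlap, and their log2 fold changes were 0.63 ± 0.07 and 0.71 ± 0.08 (edgeR adjusted p = 3.76e-05 and 3.83e-05). Ctsl was higher by 1.12 ± 0.14 (2.17-fold, edgeR adjusted p = 0.000155), and Npc2, the soluble cholesterol carrier of the lysosome, by 0.87 ± 0.10 (edgeR adjusted p = 5.12e-05). The gene that was lower, Npc1, the membrane protein that takes cholesterol from Npc2, had 61.8, 60.5, 68.6 and 61.2 CPM in HFD contralateral against 75.3, 73.3, 73.9 and 64.7 CPM in Chow contralateral libraries. The groups overlapped, the log2 fold change was -0.23 ± 0.06 (edgeR adjusted p = 0.0123), and the call was lost without a low-count filter, without Chow contralateral replicate 2 and with all 24 libraries in 1 fit. HFD contralateral replicate 4 had the highest level in its group for most of the 37 genes. Among them were Ctsd (1543 CPM, against 896 to 1044 CPM in the other 3), Psap and Npc2. Its sum over the 37 genes was 9394 CPM, against 7151 to 7592 CPM in the other 3. Without any 1 library of this comparison the number of called genes stayed between 29 and 31.

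In no-tumor fat fewer of the genes were called for diet, and in both directions. HFD libraries had 12 of the 37 genes higher than Chow libraries (32.4%, against 13.6% of all 15827 genes) and 2 lower (5.41%, against 11.3%), with a median log2 fold change of 0.14 against -0.02 for all genes. The higher genes were Ctsa, Ctsf, Ctsl, Lipa, Glb1, Gusb, Man2b1, Ppt1, Psap, Npc2, Atp6v0d1 and Tfeb. Ctsl had 311, 340.2, 308 and 321 CPM in HFD no-tumor against 214, 205, 210.2 and 201 CPM in Chow no-tumor libraries, a difference far beyond the spread (log2 fold change 0.64 ± 0.06, edgeR adjusted p = 1.09e-05). Ctsf had 42.9, 39.3, 40.4 and 40.0 CPM in HFD no-tumor against 30.2, 26.2, 27.4 and 23.5 CPM in Chow no-tumor libraries (0.61 ± 0.07, edgeR adjusted p = 0.000109). Both proteases stood clear of the Chow range in each HFD library.

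Man2b1, the lysosomal alpha-mannosidase, had 137, 141, 143 and 150.2 CPM in HFD no-tumor against 117, 92.8, 113 and 102 CPM in Chow no-tumor libraries (0.44 ± 0.07, edgeR adjusted p = 0.000772). Glb1, beta-galactosidase, had 31.2, 33.9, 31.4 and 33.7 CPM in HFD no-tumor against 27.2, 25.2, 27.5 and 26.8 CPM in Chow no-tumor libraries (0.30 ± 0.06, edgeR adjusted p = 0.00418). The groups did not overlap for either glycosidase. Ctsc, the dipeptidyl peptidase that activates granule proteases of immune cells, was lower, with 133, 123, 134 and 133 CPM in HFD no-tumor against 197, 135, 195 and 189 CPM in Chow no-tumor libraries (-0.44 ± 0.10, edgeR adjusted p = 0.00959). Cd63, a tetraspanin of late endosomes, was also lower, with 16.4, 13.7, 16.9 and 14.8 CPM in HFD no-tumor against 18.2, 20.5, 20.3 and 22.7 CPM in Chow no-tumor libraries (-0.39 ± 0.09, edgeR adjusted p = 0.0102), and its copy Cd63-ps was lower by a like amount (log2 fold change -0.35 ± 0.08, edgeR adjusted p = 0.0103).

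One Chow no-tumor library weighed on this comparison. Chow no-tumor replicate 2 had the lowest level in its group of Ctss (51.9 CPM, against 81.9 to 94.4 CPM in the other 3), Lgmn (64.0 against 112 to 122 CPM), Cd68 (28.6 against 48.6 to 59.7 CPM) and Laptm5 (55.3 against 84.8 to 95.1 CPM). It also had the lowest sum of 16 macrophage markers, 1271 CPM against 1964 to 2141 CPM. Without it, 14 of the 37 genes were higher and 8 lower. Over all genes, 2411 were higher and 2181 lower of 16087 tested, against 2160 and 1783 of 15827 with every library. The lower ones of the 37 were Cd63, Cd68, Ctsc, Ctsh, Lamp2, Laptm5, Lgmn and Npc1. Without Chow no-tumor replicate 4, 9 of the 37 genes were called, and 3207 of all 16047.

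**Figure D2:**
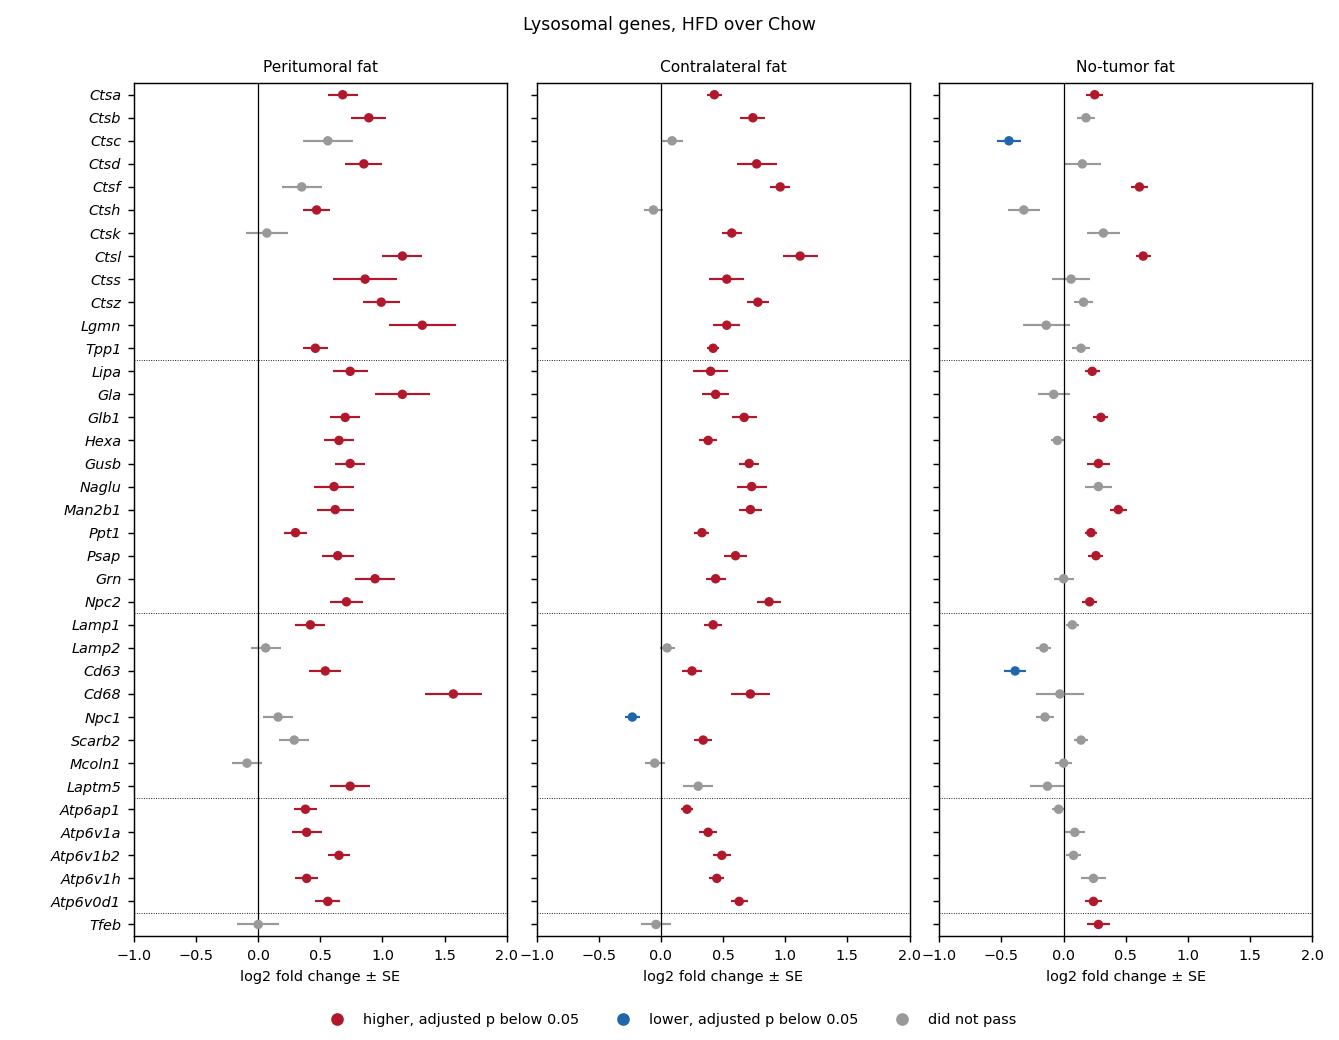
Log2 fold change of HFD over Chow with its SE for each of the 37 genes, in peritumoral, contralateral and no-tumor fat (4 libraries per group); red marks genes higher and blue genes lower at an adjusted p below 0.05. In peritumoral fat 29 genes were higher, in contralateral fat 30 were higher and 1 lower, and in no-tumor fat 12 were higher and 2 lower.

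The 3 diet comparisons share no library, but the labels do not say whether peritumoral and contralateral fat came from the same animals. In all, 10 of the 37 genes were higher on HFD at all 3 positions: the proteases Ctsa and Ctsl, the hydrolases Lipa, Glb1, Gusb, Man2b1 and Ppt1, the lipid carriers Psap and Npc2, and the pump subunit Atp6v0d1. In peritumoral and in contralateral fat, 27 were higher in both, of which 17 were not called higher in no-tumor fat. Shares of all genes higher in several comparisons were not computed. In single comparisons they were 16.4% in peritumoral, 24.5% in contralateral and 13.6% in no-tumor fat. Among the 10, the no-tumor calls of Atp6v0d1, Ctsa, Gusb, Lipa and Npc2 were lost under some alternatives. So were the contralateral call of Lipa and the peritumoral call of Ppt1. Of the 10 genes with TCACGTG in the promoter window, 9 were higher in peritumoral and 9 in contralateral fat, and of the 22 genes with a window but no such motif, 16 and 18 were. Mcoln1 was the gene with the motif that was not called.

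Whether the diet effect differed between contralateral and no-tumor fat was tested as an interaction on 16 libraries, which the pairwise comparisons also use. A positive interaction means that HFD over Chow was more positive in contralateral fat. It was called for 18 of the 37 genes (48.6%, against 9.94% of all 16676 genes tested). A negative interaction was called for none (against 9.94% of all genes). At an unadjusted p below 0.05 edgeR had 0 negative, and DESeq2 called 0 negative. Positive did not always mean a larger effect. Ctsc and Cd63 were lower on HFD in no-tumor fat, while in contralateral fat Ctsc was not called and Cd63 was higher. The median interaction was 0.38 on the log2 scale, against 0.01 for all genes. By role the 18 were 6 proteases, 7 hydrolases and activators, 2 membrane proteins and 3 pump subunits.

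Npc2 had 283, 303, 304 and 389 CPM in HFD contralateral, 226, 252, 237 and 253 CPM in HFD no-tumor, 156, 189, 176 and 158 CPM in Chow contralateral, and 221, 215, 215 and 197 CPM in Chow no-tumor libraries. Contralateral libraries thus lay above no-tumor libraries on HFD and below them on Chow, without overlap, and the interaction was 0.68 ± 0.13 (edgeR adjusted p = 0.00245). Hexa, the alpha subunit of beta-hexosaminidase, had 118, 118, 122 and 132 CPM in HFD contralateral, 97.9, 99.1, 99.3 and 106 CPM in HFD no-tumor, 84.8, 100.3, 95.3 and 87.6 CPM in Chow contralateral, and 104, 101, 109 and 107 CPM in Chow no-tumor libraries. It showed the same crossing without overlap, with an interaction of 0.44 ± 0.09 (edgeR adjusted p = 0.00301). Ctsz, with 106, 109, 105 and 109 CPM in HFD no-tumor and 113, 79.1, 96.4 and 99.6 CPM in Chow no-tumor libraries, had an interaction of 0.62 ± 0.13 (edgeR adjusted p = 0.00474). Its diet difference lay beyond the spread in contralateral and within it in no-tumor fat.

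Cd63 had 19.7, 18.4, 20.9 and 18.6 CPM in HFD contralateral and 15.6, 16.2, 16.9 and 14.9 CPM in Chow contralateral libraries, and its interaction, 0.65 ± 0.12, had the lowest adjusted p (0.00202, edgeR), with 0.54 ± 0.11 for Cd63-ps (edgeR adjusted p = 0.00313). Macrophage markers moved with the same interaction, 10 of 16 called positive and none called negative. So did adipocyte markers, 6 of 12 called positive and none negative, and neutrophil markers, 2 of 3 tested called positive. Endothelial markers were called with a negative interaction in 5 of 6 cases, mammary epithelial markers in 2 of 6 and dendritic cell markers in 2 of 4. Their part in the result was not tested. Fitted with all 24 libraries, 8 of the 37 genes were called, and 1556 of all 17201. Without Chow no-tumor replicate 2 there were 25 of the 37, and 3753 of all 16952.

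Tumor side was compared on each diet. On HFD, peritumoral fat had 14 of the 37 genes higher than contralateral fat (37.8%, against 16.8% of all 15627 genes) and 1 lower (2.7%, against 12.7%), with a median log2 fold change of 0.25 against -0.02. Lgmn had 322, 407, 457 and 460.3 CPM in HFD peritumoral against 110, 119, 127 and 156 CPM in HFD contralateral libraries. The lowest peritumoral library lay above the highest contralateral one by a wide margin, and the log2 fold change of 1.69 ± 0.15 (3.23-fold, edgeR adjusted p = 0.000291) was the highest of the 37. Ctsc had 266, 293, 337 and 374 CPM in HFD peritumoral against 146, 137, 161 and 145 CPM in HFD contralateral libraries (1.12 ± 0.12, 2.17-fold, edgeR adjusted p = 0.000555).

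Laptm5, a lysosomal membrane protein of blood-derived cells, had 137, 179, 175 and 196 CPM in HFD peritumoral against 92.8, 89.0, 98.3 and 98.2 CPM in HFD contralateral libraries (0.87 ± 0.11, edgeR adjusted p = 0.00129). Ctsh, an aminopeptidase among the cathepsins, had 146, 127, 155 and 164 CPM in HFD peritumoral against 95.4, 90.3, 93.7 and 82.5 CPM in HFD contralateral libraries (0.72 ± 0.09, edgeR adjusted p = 0.00131). Neither had any overlap. Cd68 was higher by 1.39 ± 0.18, Gla by 1.14 ± 0.16, Ctss, the cathepsin that processes the class II invariant chain, by 1.14 ± 0.17, and Grn by 0.77 ± 0.11 on the log2 scale (edgeR adjusted p = 0.00131, 0.00217, 0.00284 and 0.00242). The other higher genes were Ctsa, Ctsz, Lipa, Hexa, Npc1 and Atp6ap1, with log2 fold changes between 0.25 (Atp6ap1) and 0.57 (Lipa).

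Ctsf went the other way, with 36.2, 22.7, 29.0 and 30.4 CPM in HFD peritumoral against 49.5, 47.4, 46.8 and 56.8 CPM in HFD contralateral libraries. Every peritumoral library lay below every contralateral one (-0.75 ± 0.13, edgeR adjusted p = 0.00452). The genes with the highest levels per kilobase did not pass: Ctsd had a log2 fold change of 0.13 ± 0.20, Psap of 0.09 ± 0.11, Lamp1 of 0.15 ± 0.10 and Ctsl of 0.41 ± 0.15 (edgeR adjusted p = 0.623, 0.552, 0.245 and 0.0645). Of the 5 pump subunits, Atp6ap1 alone was called, and Atp6v0d1 was level (-0.00 ± 0.09, edgeR adjusted p = 0.971).

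Markers of other cells moved with tumor side on HFD. Of 16 macrophage markers, 14 were higher in peritumoral fat and 0 lower, and their sum ran from 3096 to 4340 CPM in HFD peritumoral against 1707 to 2151 CPM in HFD contralateral libraries. The defining markers Adgre1 and Csf1r, both of that list, were higher by 0.91 ± 0.12 and 0.48 ± 0.13 on the log2 scale (edgeR adjusted p = 0.00131 and 0.0264). A separate list of 8 lipid-associated macrophage markers had 2 higher, Trem2 among them (1.48 ± 0.43, edgeR adjusted p = 0.0305), 1 lower and 5 not called. That list, which includes the adipocyte-expressed Lpl and Plin2, summed to 2366 to 3835 CPM in HFD peritumoral against 4207 to 5557 CPM in HFD contralateral libraries. Of 12 adipocyte markers 0 were higher and 11 lower, and their sum ran from 9634 to 17696 CPM in HFD peritumoral against 19976 to 23004 CPM in HFD contralateral libraries. Neutrophil markers, summed over 5 genes, ran from 37.4 to 92.8 CPM in HFD peritumoral against 11.4 to 29.2 CPM in HFD contralateral libraries. Cd68, Ctss and Laptm5 are themselves genes of macrophages, and the part of these cells in the result was not tested.

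**Figure D3:**
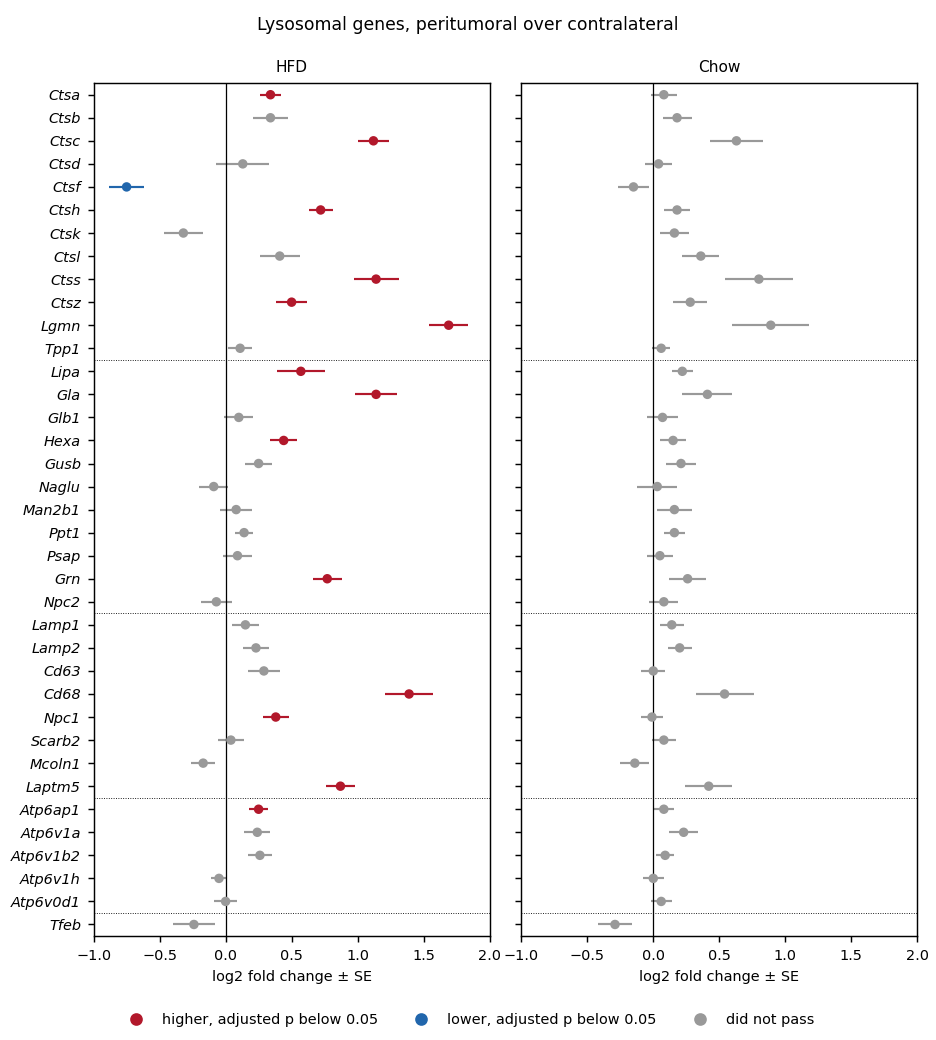
Log2 fold change of peritumoral over contralateral fat with its SE for each of the 37 genes, on HFD and on Chow (4 libraries per group), coloured by call. On HFD 14 genes were higher and 1, Ctsf, was lower, and on Chow none was called.

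On Chow, edgeR called 0 of the 37 genes between peritumoral and contralateral fat, as it called 0.0% of all 16057 genes. At an unadjusted p below 0.05 there were 11 of the 37 and 1381 genes in all, and DESeq2 called 0 of the 37 and 19 genes in all. The median log2 fold change of the 37 was 0.15, against -0.01 for all genes. Lgmn had 87.8, 129, 219 and 206 CPM in Chow peritumoral against 79.6, 99.9, 89.7 and 77.3 CPM in Chow contralateral libraries, with 1 peritumoral library inside the contralateral range and 3 above it. Its log2 fold change was 0.89 ± 0.29 (edgeR adjusted p = 0.559), and that of Ctss 0.80 ± 0.26 (edgeR adjusted p = 0.559). The macrophage markers summed to 1548 to 2689 CPM in Chow peritumoral and 1382 to 1740.4 CPM in Chow contralateral libraries, with 0 of 16 called.

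The difference of the side effect between diets was tested on 16 libraries, and edgeR called 0 of the 37 genes and 0.0% of all 16859 genes. At an unadjusted p below 0.05 there were 13 of the 37 and 3349 genes in all. DESeq2 called 727 genes in all, among them Ctsh with a positive and Ctsf with a negative interaction. Without HFD peritumoral replicate 1, edgeR called 6 of the 37, and 1911 of all 16996 genes tested (1112 positive and 799 negative). The 6 were Gla, Ctsh, Cd68, Grn and Npc1 with a positive interaction and Ctsf with a negative one. The side effect on HFD is therefore not shown to differ from that on Chow for any of the 37 genes in the planned test.

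Contralateral fat was also set against no-tumor fat on each diet. On HFD, 7 of the 37 genes were higher in contralateral fat (18.9%, against 2.72% of all 15718 genes) and none lower (3.37% of all genes were), with a median log2 fold change of 0.20 against 0.01. At an unadjusted p below 0.05 edgeR had 0 lower members, and DESeq2 called 0 lower. Laptm5 had 92.8, 89.0, 98.3 and 98.2 CPM in HFD contralateral against 77.4, 69.2, 69.2 and 76.8 CPM in HFD no-tumor libraries (0.35 ± 0.06, edgeR adjusted p = 0.00664). Grn had 215, 219, 220.5 and 248 CPM in HFD contralateral against 184, 178, 177 and 183 CPM in HFD no-tumor libraries (0.30 ± 0.06, edgeR adjusted p = 0.0108). Neither gene had any overlap. Ctsz was higher by 0.45 ± 0.08 and Hexa by 0.26 ± 0.05 (edgeR adjusted p = 0.0104 and 0.0158), also without overlap of the library values given above. The others were Ctsf, Npc2 and Lgmn, at 0.28 ± 0.07, 0.38 ± 0.09 and 0.42 ± 0.10 (edgeR adjusted p = 0.0297, 0.0302 and 0.0373). Macrophage markers were higher in 7 of 16 cases and adipocyte markers in 4 of 12, and their part in the result was not tested. With all 24 libraries in 1 fit, 0 of the 37 were called, and without HFD no-tumor replicate 2, 3 or 4 the count was 3, 3 and 4.

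On Chow, 0 of the 37 genes were higher in contralateral than in no-tumor fat (4.93% of all 15946 genes were higher) and 4 were lower (10.8%, against 3.02%). At an unadjusted p below 0.05 edgeR had 1 higher and DESeq2 called 0 higher. Atp6v0d1 had 46.6, 46.7, 49.2 and 46.7 CPM in Chow contralateral against 54.3, 58.7, 58.8 and 58.1 CPM in Chow no-tumor libraries (-0.24 ± 0.06, edgeR adjusted p = 0.0275). Atp6ap1, an accessory protein of the pump, had 89.2, 87.0, 86.3 and 79.9 CPM in Chow contralateral against 110.3, 96.6, 101 and 102 CPM in Chow no-tumor libraries (-0.22 ± 0.06, edgeR adjusted p = 0.0412). Npc2 and Cd63 had log2 fold changes of -0.28 ± 0.08 and -0.33 ± 0.09 (edgeR adjusted p = 0.0465 and 0.0457). The groups did not overlap for any of the 4, as for 95.0% of all genes called here, and all 4 calls were close to the threshold and were lost with the replicate number as a block. The count ran from 0 to 10 when single libraries were left out. It was 0 without Chow contralateral replicate 1, 3 or 4 or Chow no-tumor replicate 3 or 4. It was 1 without Chow contralateral replicate 2, 2 without Chow no-tumor replicate 1 and 10 without Chow no-tumor replicate 2. In that last setting 1986 of all 16108 genes were called, against 1268 of 15946 with every library.

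**Figure D4:**
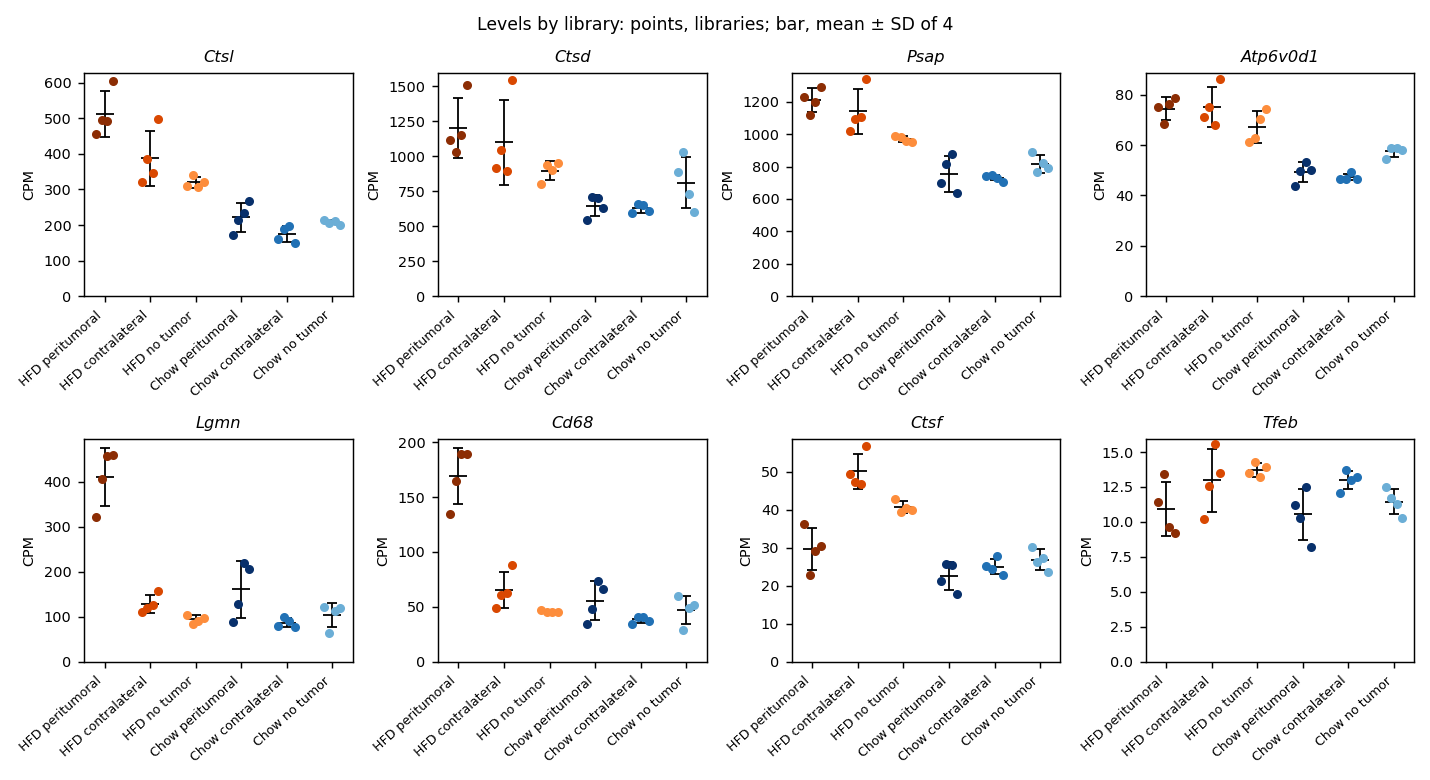
CPM of 8 of the 37 genes in each library by group; points are libraries and the bar is the mean ± SD of 4. Ctsl, Psap and Atp6v0d1 were higher on HFD at all 3 positions, Ctsd at 2, Lgmn and Cd68 were highest in HFD peritumoral fat, Ctsf was highest in HFD contralateral fat, and Tfeb was called for diet in no-tumor fat alone.

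Tfeb, the transcription factor whose protein is controlled largely by its location in the cell, was called in 1 of the 9 comparisons. It had 11.4, 13.4, 9.60 and 9.20 CPM in HFD peritumoral, 10.2, 12.6, 15.6 and 13.5 CPM in HFD contralateral, 13.5, 14.3, 13.2 and 13.9 CPM in HFD no-tumor, 11.2, 10.3, 12.5 and 8.19 CPM in Chow peritumoral, 12.1, 13.7, 13 and 13.2 CPM in Chow contralateral, and 12.5, 11.7, 11.3 and 10.3 CPM in Chow no-tumor libraries. The groups overlapped in every pairwise comparison except that of diet in no-tumor fat, where HFD libraries lay above Chow libraries (0.28 ± 0.09, edgeR adjusted p = 0.0348). That call was lost with DESeq2, without a low-count filter and with the replicate number as a block. In contralateral fat, where 30 of the other genes were higher on HFD, its log2 fold change was -0.04 ± 0.12 (edgeR adjusted p = 0.811), and in peritumoral fat it was 0.00 ± 0.17 (edgeR adjusted p = 0.998).

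Lamp2 and Mcoln1 were called in none of the 9 comparisons. Lamp2 ranged from 281 to 365 CPM in HFD peritumoral and from 252 to 279 CPM in Chow contralateral libraries, its highest and lowest groups. Mcoln1 lay between 19.5 and 29.6 CPM in all 24 libraries. Both differ in this from Lamp1, which averaged 524 ± 44.8 CPM in HFD peritumoral and 381 ± 32.7 CPM in Chow peritumoral fat (SD, n = 4 each).

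Other genes of the lysosome and of autophagy, 128 in the table and listed with earlier results of these data known, were read from the same fits. In peritumoral fat 53 of 123 tested were higher on HFD (43.1%, against 16.4% of all genes) and 8 lower (6.5%, against 17.2%). In contralateral fat 79 of 123 were higher (64.2%, against 24.5%) and 15 lower (12.2%, against 24.8%). In no-tumor fat 29 of 124 were higher (23.4%, against 13.6%) and 13 lower (10.5%, close to the 11.3% of all genes). The interaction of diet with tumor bearing was called positive for 43 of 124 (34.7%, against 9.94%) and called negative for 4 (3.23%, against 9.94%). The shares of all genes given here are the background for the smaller lists that follow. Of 36 other hydrolases and cofactors, 21 were higher on HFD in peritumoral and 29 in contralateral fat. They included Smpd1, the acid sphingomyelinase, at 0.80 ± 0.08 on the log2 scale in contralateral fat (edgeR adjusted p = 1.39e-05). Of 16 other pump subunits, 8 were higher and 1 lower on HFD in peritumoral fat. Atp6v0d2, a membrane subunit known from osteoclasts and macrophages, was higher there by 2.41 ± 0.43, and Atp6v1b1, a subunit known from kidney and epithelium, had a log2 fold change of -1.81 ± 0.34 (edgeR adjusted p = 0.00375 and 0.0047).

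Among 23 genes for sorting to lysosomes and control of lysosomal genes, Zkscan3, known as a repressor of autophagy and lysosome genes, had log2 fold changes on HFD of -1.02 ± 0.13 in peritumoral and -0.85 ± 0.07 in contralateral fat (edgeR adjusted p = 0.000714 and 3.23e-06). In no-tumor fat the change was -0.29 ± 0.08 (edgeR adjusted p = 0.0163), and its interaction of diet with tumor bearing was -0.55 ± 0.10 (edgeR adjusted p = 0.00242). On HFD these genes were higher in 8 cases and lower in 2 in peritumoral fat, and higher in 14 and lower in 5 in contralateral fat. Of 5 cathepsin inhibitors tested, 3 were higher and 0 lower on HFD in peritumoral fat, and 2 higher and 1 lower in contralateral fat. Cst3, cystatin C, was higher by 0.61 ± 0.14 in peritumoral and 0.87 ± 0.07 in contralateral fat (edgeR adjusted p = 0.0096 and 5.9e-06). Cstb, an intracellular cystatin, was higher by 1.06 ± 0.14 and 0.80 ± 0.10 (edgeR adjusted p = 0.000953 and 7.6e-05). Of 17 autophagy genes, 7 were higher and 1 lower in peritumoral fat and 12 higher and 3 lower in contralateral fat, with Sqstm1, an autophagy cargo receptor, at 0.61 ± 0.11 and 0.64 ± 0.07 (edgeR adjusted p = 0.00311 and 2.07e-05).

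Between the sides on HFD, 22 of 123 of the other genes were higher in peritumoral fat (17.9%, against 16.8% of all genes) and 15 lower (12.2%, against 12.7%), shares close to those of all genes. Tfec, a relative of Tfeb known from macrophages, was higher by 2.31 ± 0.27, the channel Mcoln2 by 2.59 ± 0.25 and the GTPase Rragd by 1.54 ± 0.31 on the log2 scale (edgeR adjusted p = 0.000962, 0.000371 and 0.00773). Acp5, the tartrate-resistant acid phosphatase, had a log2 fold change of -0.81 ± 0.15, Map1lc3a, an autophagosome protein, of -0.79 ± 0.13, and the sorting receptor Sort1 of -0.71 ± 0.17 (edgeR adjusted p = 0.00643, 0.00362 and 0.0142).

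The 37 genes together summed to 9046 to 11145 CPM in HFD peritumoral, 7151 to 9394 CPM in HFD contralateral and 6460.3 to 6850.1 CPM in HFD no-tumor libraries. On Chow the sums were 4916 to 6443 CPM in peritumoral, 4869.7 to 5437 CPM in contralateral and 5805 to 6500.1 CPM in no-tumor libraries. Marker sums moved in part with them. The macrophage markers summed to 1325 to 1634 CPM in HFD no-tumor and 1271 to 2141 CPM in Chow no-tumor libraries, with 1 of 16 higher and 2 lower on HFD. Other marker lists moved with diet in no-tumor fat: 4 of 8 lipid-associated macrophage markers were higher and 0 lower, 5 of 6 endothelial markers higher and 0 lower, and 5 of 12 adipocyte markers higher and 2 lower. Fibroblast markers had 1 of 8 higher and 4 lower there, and mammary epithelial markers 0 of 6 higher and 3 lower. The macrophage markers were higher on HFD in 11 of 16 cases in peritumoral fat, where Adgre1 was higher by 0.86 ± 0.19 (edgeR adjusted p = 0.00828), and in 7 of 16 in contralateral fat with 1 lower. The adipocyte markers were higher on HFD in 8 of 12 cases in contralateral fat, and in peritumoral fat 1 was higher and 1 lower. Lipid-associated macrophage markers were higher on HFD in 6 of 8 cases in peritumoral fat with 0 lower, and in 6 of 8 in contralateral fat with 1 lower. Markers of mammary epithelium were lower on HFD in 5 of 6 cases in peritumoral and 6 of 6 in contralateral fat. They summed to 75.4 to 282 CPM in HFD peritumoral against 389 to 454 CPM in Chow peritumoral libraries. None of these markers was at 0 in every library. Neutrophil markers were higher on HFD in 4 of 4 tested in peritumoral and 2 of 3 in contralateral fat, with 0 lower. In no-tumor fat 1 of 2 was higher and 1 lower. Skeletal muscle markers were lower on HFD in 4 of 5 cases in contralateral fat with 0 higher, and none was called at the other positions. The part of all these cell types in the diet results was not tested.

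**Figure D5:**
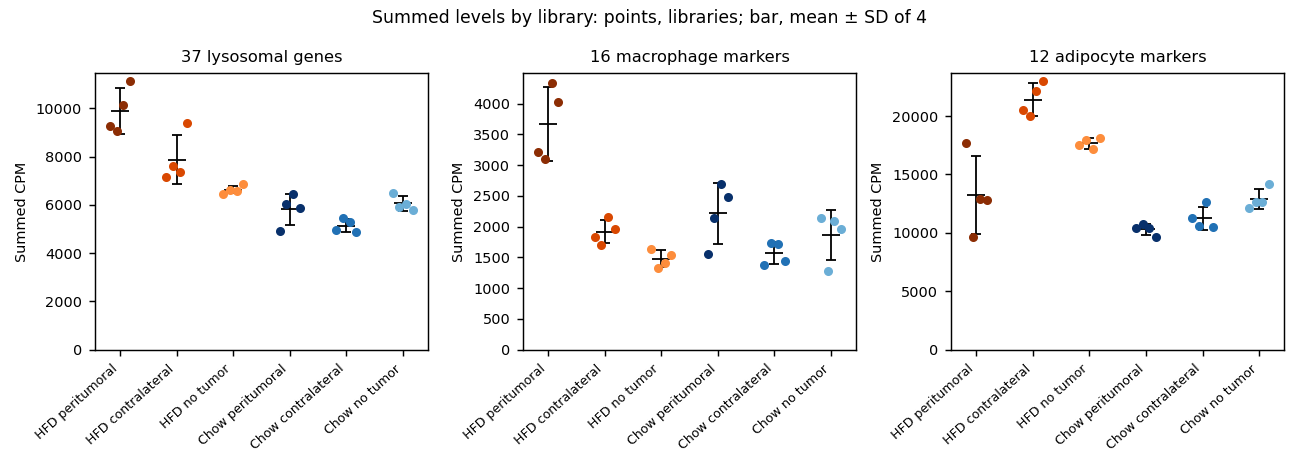
Summed CPM in each library of the 37 lysosomal genes, of 16 macrophage markers and of 12 adipocyte markers, by group; points are libraries and the bar is the mean ± SD of 4. The lysosomal sum was 9046 to 11145 CPM in HFD peritumoral against 4916 to 6443 CPM in Chow peritumoral libraries, and the macrophage and adipocyte sums stood in different orders across the groups.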

How the data were processed

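Gene counts of 24 libraries were used as deposited by the authors, as 1 matrix of raw counts per gene. Per the submitters' processing notes, the tools included TopHat and DESeq, the build was mm10, with versions and strand setting not given in the sources used. Groups were taken from the diet and position labels. Pairwise fits used the 8 libraries of both groups and interactions 16, in edgeR 4.0.16 in R 4.3.3 (TMM factors, robust quasi-likelihood F test, filterByExpr, min.count 10, min.total.count 15). The Benjamini-Hochberg adjustment ran over all genes tested, with a threshold of 0.05. The SE is the absolute log2 fold change divided by the square root of F. CPM used TMM factors from a set of all 24 libraries and were divided by exon length for levels per kilobase. The fits were tested on simulated counts. Replicates differed by more than sampling noise (median chi-square per gene 0.93 to 7.41, against 0.455 from sampling alone), so none was merged. Depth was 9130125 to 18204747 counts per library.

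The members and gene lists were chosen with earlier results of these data known. Values in every library are given for up to 4 called members per direction and comparison with the lowest adjusted p and for Tfeb, and other listed genes are named up to 3 per list, direction and comparison by the same order. Lgmn on Chow, Chow no-tumor replicate 2, HFD contralateral replicate 4 and Cd63-ps were singled out after they were seen. Alternatives were DESeq2 1.42.0, RLE size factors, no filter or a filter of 1 CPM in 4 libraries, all 24 libraries in 1 fit, the replicate number as a block, and leaving out each library. Protein sequences were not used here.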

Additional observations from a re-analysis of the deposited data

Results flagged for a closer look

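Among 222 sets of 4 libraries (37 genes in 6 groups), 14 held a library flagged as apart from the other 3, a share close to the 1 in 20 that chance alone gives. In HFD peritumoral fat this was Scarb2 in replicate 2 (115 CPM). In HFD contralateral fat these were Man2b1 (198 CPM) and Grn (248 CPM) in replicate 4 and Npc1 (68.6 CPM) in replicate 3. In HFD no-tumor fat these were Ctsc in replicate 2 (123 CPM), Hexa in replicate 4 (106 CPM), and Cd68 (47.4 CPM) and Npc1 (66.8 CPM) in replicate 1. In Chow peritumoral fat it was Npc1 in replicate 4 (61.2 CPM), and in Chow contralateral fat Atp6v0d1 in replicate 3 (49.2 CPM). In Chow no-tumor fat replicate 2 was flagged for Ctsc (135 CPM), Atp6v1b2 (59.8 CPM) and Atp6v1h (48.6 CPM), and replicate 1 for Atp6v0d1 (54.3 CPM). Some flagged gaps were small. The other HFD no-tumor libraries had 45.0 to 45.3 CPM of Cd68, and the other Chow contralateral libraries 46.6 to 46.7 CPM of Atp6v0d1.

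The interaction of diet with tumor bearing was called positive for 18 genes by a test of the difference itself. Of these calls, 8 held under every alternative. The other 10 were lost under at least 1: Atp6ap1, Ctsc, Ctsf, Ctsl, Gla, Glb1, Grn, Gusb, Psap and Tpp1. On the log2 scale the difference was 0.57 for Ctsb, 0.53 for Ctsc, 0.36 for Ctsf, 0.49 for Ctsl, 0.62 for Ctsz and 0.28 for Tpp1 among the proteases. Among hydrolases and activators it was 0.52 for Gla, 0.38 for Glb1, 0.44 for each of Hexa, Gusb and Grn, 0.35 for Psap and 0.68 for Npc2. It was 0.35 for Lamp1 and 0.65 for Cd63 among membrane proteins, and 0.26 for Atp6ap1, 0.42 for Atp6v1b2 and 0.40 for Atp6v0d1 among pump subunits.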

How the results depend on the processing

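Of 118 called results on single genes, 79 kept their call under every alternative, 39 lost it under at least 1, and 0 changed direction. For the contralateral against no-tumor comparison on Chow, the count of 4 called genes became 7 with DESeq2, 1 in a joint fit of 24 libraries and 0 with the replicate block. On HFD the count of 7 became 11 without a low-count filter and 0 with all 24 libraries in 1 fit. The interaction of diet with side had 2 called genes with DESeq2 in place of 0, and that of diet with bearing had 8 with all 24 libraries in 1 fit in place of 18. The causes were not tested. Leaving out 1 library at a time gave 9 to 22 called genes for diet in no-tumor fat (9 without Chow no-tumor replicate 4, 22 without replicate 2), 29 to 31 in contralateral and 24 to 30 in peritumoral fat. It gave 12 to 19 for side on HFD, 0 for side on Chow, 0 to 10 on Chow and 3 to 9 on HFD for contralateral over no-tumor fat (3 without HFD no-tumor replicate 2 or 3, 4 without replicate 4), 0 to 6 for diet by side and 12 to 25 for diet by bearing.

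The labels do not say whether equal replicate numbers mark pairs, so they were not treated as pairs. In no comparison did every same-numbered correlation of deviations exceed 0.1 (range -0.368 to 0.322). For the sides on HFD they were -0.111, 0.107, 0.196 and 0.322. Between HFD and Chow peritumoral fat, which cannot share animals, they reached 0.31. Correlations of this size therefore cannot show whether libraries are paired. On HFD 2 of 4 peritumoral and 3 of 4 contralateral libraries, on Chow 1 and 1 of 4, correlated best with their own number. With the replicate block, 20 genes were called for side on HFD in place of 15, and no count of members other than that on Chow above moved by over 1.5 times. Only peritumoral and contralateral fat on the same diet could share animals. In the diet and no-tumor comparisons the block therefore tests no pairing of animals, and in the interactions it joins libraries of different diets. Over all genes, diet in peritumoral fat had 8799 calls with all 24 libraries in 1 fit in place of 5353. Contralateral against no-tumor fat on Chow had 356 with the block and 692 in 1 fit in place of 1268, and on HFD 629 and 238 in place of 956. Diet by side had 727 (DESeq2), 333 in 1 fit, 43 with the block and 7 without a filter in place of 0, diet by bearing 1556 in 1 fit in place of 3314, and side on Chow 19 with DESeq2 and 3 without a filter in place of 0. Without a filter the median of all genes in contralateral fat was -0.12. Splits moved as well: on Chow, the share of higher genes among those called for contralateral over no-tumor fat was 78.9% with the block and 50.8% without a filter in place of 62.0%, and on HFD 24.4% in 1 fit in place of 44.7%. With 4 libraries a group, small differences cannot be shown or denied.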
